A study of Mus musculus with 27 samples.

Results

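The genes of oxidative phosphorylation were taken from the deposited table by their symbols, as the 13 mRNAs encoded on the mitochondrial genome and the nuclear genes named for subunits of complexes I to V. The rule took symbols starting with mt-Nd, mt-Co, mt-Cytb, mt-Atp, Nduf (a, b, c, s or v), Sdha to Sdhd, Uqcr, Cox4 to Cox8 or Atp5, and left out 15 annotated pseudogenes with -ps in the symbol. It found 113 of the 56691 genes in the table, 13 mitochondrially encoded and 100 nuclear. Of these, 103 had enough counts to be tested, all 13 mitochondrial mRNAs and 90 nuclear genes. The tested nuclear genes were 38 for complex I, 8 for its assembly factors (Ndufaf), 4 for complex II, 8 for complex III, 15 for complex IV and 17 for complex V, the ATP synthase. The choice used symbols alone, with no measured value.

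RNA was sequenced from mouse gastric organoids in 7 groups of 3 libraries. They came from the corpus of the stomach of adult Mist1Cre/ERT2;RFPLSL mice, in which an inducible Cre under the Mist1 gene switches on a red fluorescent protein (RFP). Dissociated cells were sorted for RFP, and the organoids grew in Matrigel with proliferating medium. Wild type here means organoids labelled Mist1+ with a WT genotype, sampled at passages 5, 10 and 15. Knockout means organoids labelled Gpx4 KO and Mist1+, grown from Gpx4F/F;Mist1Cre/ERT2;RFPLSL mice and sampled at the same passages. A group labelled Mist1- with a WT genotype was sampled at passage 5 only. Bhlha15, the gene of Mist1, was read at 12.8, 8.61 and 9.76 CPM in the libraries labelled Mist1- and at 5.02, 6.21 and 5.28 CPM in wild type at passage 5, labelled Mist1+. Its transcript was thus higher in each library labelled Mist1-, against the sense of the label, and Mist1- and Mist1+ below name the labels only. By the series text the wild-type and knockout lines both carry the Cre and the reporter. How Mist1- cells were gated and how many animals or clones gave each line are not given in the sources used here. The 6 libraries of sorted cells from mice on a normal or a high fat diet were not analysed here. In bulk RNA, fewer cells of a type and less RNA per cell cannot be told apart.

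Complexes I to IV pass electrons from NADH and succinate to oxygen. Complexes I, III and IV pump protons across the inner mitochondrial membrane as they do so, and complex V uses that gradient to make ATP. Complexes I, III, IV and V each combine subunits from the mitochondrial genome with subunits made from nuclear genes, while complex II is wholly nuclear. In the corpus of the stomach, acid-secreting parietal cells are known for their many mitochondria. Gpx4, the gene deleted by design in the knockout organoids, encodes the enzyme that reduces lipid hydroperoxides in membranes.

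The 21 libraries held 13805585 to 19608956 counts in genes. Levels are CPM, counts scaled to a common library total by the trimmed mean of M-values. Differences are log2 with their standard error (SE) from edgeR's quasi-likelihood test, and rose, fell or called means a Benjamini-Hochberg adjusted p under 0.05 over all genes tested. Whether replicates were grown apart is not stated in the labels, and each p-value therefore reflects only how much these libraries vary, which may be technical. Gpx4 was read at 132, 124 and 134 CPM in wild type at passage 5 and at 101, 98.9 and 98.2 CPM in the knockout at passage 5. The passage 15 knockout gave 86.8, 83.1 and 87.8 CPM. Which exons the floxed allele removes is not given in the labels, so this gene-level count checks the genotype only in part.

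The wild-type passage 15 libraries stood apart. Their biological coefficient of variation was 21.1%, against 1.89% to 3.07% in the other 6 groups. Fits that do not need this group therefore used the other 18 libraries. The difference between its libraries followed gene length. Among the 2232 shortest genes (67 to 2448 bases) the median log2 ratio of replicate 1 to replicate 2 was 0.56, and among the 2232 longest it was -0.57. Oxidative phosphorylation genes are short, with a median exonic length of 1737 bases (86 nuclear genes) against 4456 for all genes compared, and 60 of the 86 are among the shortest. Therefore each result on this group is given with its 3 libraries and with replicate 2 alone.

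Short stretches of mitochondrial mRNAs are shown first, because they set which of the 13 counts can be read. In GENCODE M21 (GRCm38), mt-Co3 lies on the mitochondrial chromosome (M) at 8607 to 9390, mt-Nd3 at 9459 to 9806 and mt-Co1 at 5328 to 6872, all on the plus strand. Gene models on the minus strand of chromosome 1 hold near-identical copies, Gm28437 at 24613189 to 24613971, Gm28438 at 24612775 to 24613119 and Gm29216 at 24615706 to 24616197. Each line gives 60 bases of the transcript, with capitals at bases that differ from the copy and positions counted from 1 at the 5′ end of the mRNA.
mt-Co3, bases 1 to 60, identical in Gm28437: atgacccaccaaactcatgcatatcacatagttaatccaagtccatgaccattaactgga
mt-Nd3, bases 1 to 60: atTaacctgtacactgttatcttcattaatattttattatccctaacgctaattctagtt
Gm28438, the same stretch, with T3C: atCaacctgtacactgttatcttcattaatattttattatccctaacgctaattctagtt
mt-Co1, bases 1063 to 1122: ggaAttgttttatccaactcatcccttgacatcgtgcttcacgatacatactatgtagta
Gm29216, the same stretch, with A1066T: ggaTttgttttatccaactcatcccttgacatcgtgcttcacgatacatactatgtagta

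Over at least 99% of their length, 5 of the 13 mRNAs matched such a nuclear gene model at 99.7% to 100% identity by BLASTN (mt-Co2, mt-Co3, mt-Atp6, mt-Nd3 and mt-Nd4l). Copies of part of an mRNA or of lower identity exist for others. Gm29216 covers 31.3% of mt-Co1 at 99.8% identity, Gm13340 all of it at 97.6%, and Gm28439 63.6% of mt-Nd4 at 100%. Gm4076 covers 52.3% of mt-Nd5 at 95.2%, and Gm13339 49.1% of mt-Nd2 at 96.7%. The 5, and mt-Atp8, which shares 43 bases with mt-Atp6, were counted far below the rest. In wild type at passage 5, mt-Co1 (the catalytic core of complex IV) was read at 21700, 21640 and 21740 CPM, while mt-Co3 of the same complex stood at 38.1, 36.0 and 35.3 CPM. The nuclear model Gm28437 was itself credited with 30.9, 30.3 and 34.5 CPM in the same libraries. The counts of the 6 mRNAs are therefore uncertain. Results below are counted over all 13, and also over the other 7 (mt-Nd1, mt-Nd2, mt-Nd4, mt-Nd5, mt-Nd6, mt-Cytb and mt-Co1), called well-counted here. mt-Nd6 lies on the minus strand and its end overlaps that of mt-Nd5 (13552 to 13565), so with the strand setting unknown reads of the strands cannot be told apart. Among the nuclear genes, 7 have a copy of at least 95% identity over at least 50% of the transcript (Atp5h, Atp5k, Atp5l, Atp5o, Ndufb11, Ndufs3 and Uqcrb), and their counts are likewise uncertain. By that rule mt-Co1, mt-Nd4 and mt-Nd5 have copies too, and their counts may be affected. The name well-counted refers to high counts, not to the absence of copies.

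Promoters of 4 nuclear genes are shown because the first and second had large differences and the others moved with their chromosome. They come from RefSeq on GRCm38.p6 and run from 250 bases before to 50 after the start. Capitals mark the motifs searched on both strands: GCGCATGCG for NRF1, CCGGAAG for ETS factors, AAGATGGCG for YY1 and GGGCGG for Sp1. Ndufa4 is at chr6:11907401-11907700, Cox6b2 at chr7:4753045-4753344, Ndufv2 at chr17:66101510-66101809 and Ndufs8 at chr19:3912725-3913024, all on the minus strand.
Ndufa4: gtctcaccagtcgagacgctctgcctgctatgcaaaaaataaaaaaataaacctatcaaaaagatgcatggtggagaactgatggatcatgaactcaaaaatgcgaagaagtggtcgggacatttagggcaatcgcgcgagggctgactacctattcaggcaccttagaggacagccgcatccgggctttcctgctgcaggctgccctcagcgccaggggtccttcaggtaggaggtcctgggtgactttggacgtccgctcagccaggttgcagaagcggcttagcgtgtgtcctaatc
Cox6b2: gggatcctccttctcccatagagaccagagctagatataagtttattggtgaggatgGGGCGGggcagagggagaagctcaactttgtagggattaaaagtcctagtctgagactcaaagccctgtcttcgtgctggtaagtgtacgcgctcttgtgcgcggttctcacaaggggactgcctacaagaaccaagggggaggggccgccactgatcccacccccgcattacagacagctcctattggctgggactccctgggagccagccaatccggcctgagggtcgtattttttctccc
Ndufv2: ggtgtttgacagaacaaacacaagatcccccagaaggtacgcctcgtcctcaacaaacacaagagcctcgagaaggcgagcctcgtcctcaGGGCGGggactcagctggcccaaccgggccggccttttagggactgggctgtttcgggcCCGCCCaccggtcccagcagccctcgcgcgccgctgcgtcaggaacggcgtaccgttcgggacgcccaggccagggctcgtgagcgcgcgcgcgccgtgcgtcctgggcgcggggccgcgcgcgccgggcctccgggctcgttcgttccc
Ndufs8: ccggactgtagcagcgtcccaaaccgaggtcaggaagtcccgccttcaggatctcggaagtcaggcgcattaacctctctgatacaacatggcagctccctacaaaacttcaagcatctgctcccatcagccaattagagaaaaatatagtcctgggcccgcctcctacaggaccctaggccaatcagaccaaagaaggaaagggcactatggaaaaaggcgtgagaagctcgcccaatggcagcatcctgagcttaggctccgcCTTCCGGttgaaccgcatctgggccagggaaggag

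Of the 90 tested nuclear genes, 75 had a promoter in the RefSeq table. The NRF1 motif was in 10 of the 75 (13.3%) and in 1.75% of all 32851 promoters of the same length. The ETS motif was in 18 (24.0%, against 8.86% of all), the YY1 motif in 7 (9.33%, against 1.40%) and the Sp1 motif in 34 (45.3%, against 35.7%). None of the 4 was in 23 of the 75, Ndufa4 among them. Ndufv2 holds the Sp1 motif on each strand, Cox6b2 holds 1 and Ndufs8 holds the ETS motif on the reverse strand. A match describes letters in this window only.

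Per length, on the authors' FPKM scale, the 7 well-counted mitochondrial mRNAs stood far above the medians of nuclear genes. In wild type at passage 5 the mean FPKM was 13460 for mt-Co1, 8197 for mt-Cytb and 6554 for mt-Nd1, while the median of the tested nuclear genes was 105 FPKM for complex IV, 96.8 for complex III, 65.3 for complex II, 62.1 for complex V and 32.3 for complex I. The assembly factors of complex I were lowest, with a median of 5.47 FPKM. Of the mRNAs with uncertain counts, mt-Atp6 and mt-Atp8 had a median of 31.8 FPKM, below that of nuclear complex V. Summed, the 13 mitochondrial mRNAs took 4.80%, 4.75% and 4.81% of counts in wild type at passage 5, and 3.81%, 3.78% and 3.75% in the knockout at passage 10, which had the lowest share outside wild-type passage 15. The nuclear genes took 0.967% to 1.13% of counts in the 18 libraries. In wild type at passage 15 they took 1.57%, 1.04% and 1.23%.

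Against organoids labelled Mist1-, wild type at passage 5 (labelled Mist1+) had more of 10 of the 13 mitochondrial mRNAs and less of 1, with a median difference of 0.21. Of the 7 well-counted mRNAs 6 rose and 1 fell (median 0.16). Over all 14984 genes tested, 26.8% were higher and 25.7% lower, with a median of 0.00. mt-Cytb, the cytochrome b of complex III, was read at 6199, 6229 and 6242 CPM in Mist1- and at 9819, 9623 and 9908 CPM in wild type. It rose by 0.65 (SE 0.03, adjusted p 3.92e-11), with every wild-type library above every Mist1- library. mt-Nd4, a proton-pumping subunit of complex I, rose by 0.44 (SE 0.03, adjusted p 1.14e-09).

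The other mitochondrial mRNAs were uneven. mt-Nd1, a membrane subunit of complex I, went the other way, from 7215, 7278 and 7236 CPM in Mist1- to 6608, 6424 and 6600 CPM. It fell by 0.15 (SE 0.03, adjusted p 0.00043). mt-Co1, mt-Nd2, mt-Nd5 and mt-Nd6 rose by 0.08 to 0.21. The mitochondrial rRNA mt-Rnr1 was also unlike mt-Cytb, at 629, 633 and 661 CPM in Mist1- and 303, 306 and 314 CPM in wild type. With library totals 7 of the 13 mRNAs rose and 1 fell.

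Nuclear genes had a smaller median difference in that comparison: 31 of 90 rose and 16 fell, with a median of 0.05. With library totals in place of scaled totals 17 rose and 24 fell (median -0.01), so the balance depended on the scaling. By complex, 10 rose and 5 fell for complex I, 3 and 1 for complex II, 3 and 3 for complex III, 8 and 1 for complex IV and 6 and 2 for complex V. Of the assembly factors of complex I, 1 rose and 4 fell. Ndufc1, an accessory subunit of complex I, was read at 25.3, 30.0 and 30.2 CPM in Mist1- and at 35.8, 36.6 and 34.2 CPM in wild type and rose by 0.32 (SE 0.07, adjusted p 0.000169). Atp5b, the catalytic beta subunit of ATP synthase, fell by 0.19 (SE 0.02, adjusted p 1.22e-25), from 1422, 1412 and 1434 CPM to 1246, 1241 and 1246 CPM.

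Among the other named genes of that comparison, Uqcr10, a small subunit of complex III, rose by 0.20 and Uqcrq, its ubiquinone-binding subunit, fell by 0.16. Atp5e, the epsilon subunit of ATP synthase, rose by 0.30. Sdhd, the membrane anchor of complex II, rose by 0.11 and Sdha, its flavoprotein, fell by 0.05. Ndufaf3, an assembly factor, rose by 0.31.

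Falls in that comparison gathered on chromosome 17. There are 7 tested nuclear members on it, and 6 of them fell in wild type against Mist1- at passage 5, with a median of -0.49. Ndufv2, the iron-sulphur subunit of the NADH-oxidising part of complex I (chromosome 17, 66078638 to 66101559), was read at 148, 149 and 158 CPM in Mist1- and at 101, 97.4 and 106 CPM in wild type, with no overlap. It fell by 0.58 (SE 0.04, adjusted p 3.43e-34). Ndufaf7, a methyltransferase that acts on complex I during assembly, fell by 0.61 and Ndufv3 by 0.56. Cox7a2l, a factor of respiratory supercomplexes, fell by 0.36, Ndufb10 by 0.49 and Ndufa11 by 0.29. Ndufa7 did not pass the test (-0.08). The members of this chromosome were singled out after their values were seen.

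The 772 tested genes of chromosome 17 had a median of -0.46 in that comparison and 66.1% were lower, and 3 equal parts along the chromosome had medians of -0.49, -0.42 and -0.47. In each library the chromosome's genes were 0.37 to 0.39 above those of other chromosomes in Mist1- and 0.09 to 0.10 below in wild type at passage 5, relative to their mean over the libraries. Without the members on chromosomes 17 and 19, 30 of 78 nuclear genes rose and 10 fell (median 0.08). Copy number was not measured, and its part in these values was not tested. Summed gastric markers also differed. The 8 parietal markers stood at 197 to 203 CPM in Mist1- and 615 to 623 CPM in wild type. Of these 8, 1 was at 0 and 5 had enough counts to be tested, and their single levels are not given here. The 6 pit cell markers stood at 595 to 627 CPM and 4957 to 5102 CPM. The 5 mucous neck markers went the other way, from 558 to 580 CPM in Mist1- to 362 to 364 CPM. Their part in the result was not tested.

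**Figure D1:**
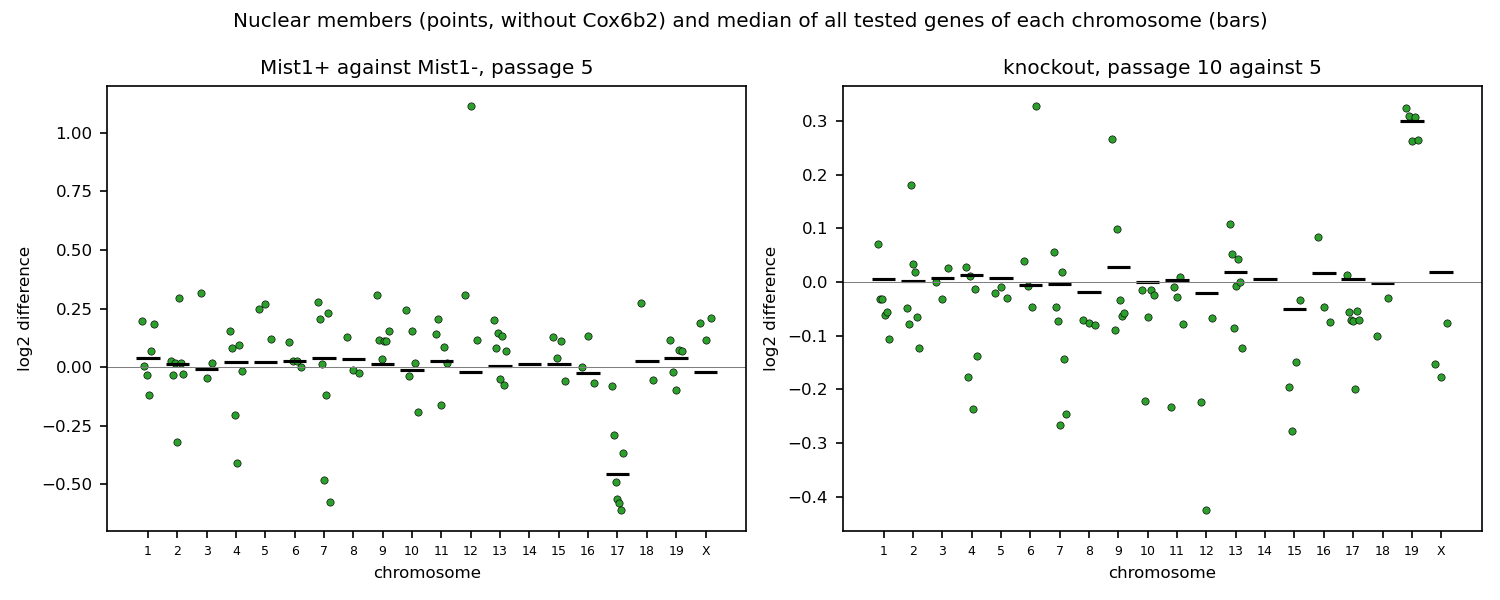
Log2 difference (y axis) of the tested nuclear oxidative phosphorylation genes by chromosome (x axis), for Mist1+ against Mist1- at passage 5 (left) and knockout passage 10 against 5 (right); points are genes, without Cox6b2, and black bars the median of all tested genes of the chromosome. The chromosome 17 bar lies at -0.46 on the left and the chromosome 19 bar at 0.30 on the right, and Ndufa7 on chromosome 17 lies near 0 (-0.08).

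In the knockout at passage 5, 9 of the 13 mitochondrial mRNAs fell against wild type at passage 5 and 0 rose, with a median of -0.19. All 7 well-counted mRNAs were among the 9, also with a median of -0.19. Among all genes 22.2% rose and 25.2% fell. mt-Co1 was read at 16690, 16700 and 17630 CPM in the knockout, below the wild-type values given above. It fell by 0.35 (SE 0.01, adjusted p 3.62e-46), with no overlap. mt-Cytb was read at 7509, 7550 and 8162 CPM and fell by 0.34 (SE 0.03, adjusted p 8.24e-08). mt-Nd1 fell least of the 7 well-counted mRNAs, by 0.10. With library totals in place of scaled totals 5 fell and 0 rose (median -0.10). The mitochondrial rRNAs did not fall likewise. mt-Rnr2 was read at 805.9, 774.9 and 797.9 CPM in wild type and at 1250, 1259 and 1307 CPM in the knockout. The libraries overlapped for mt-Rnr1.

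The median of the nuclear genes was near 0. At passage 5, 20 of 90 rose in the knockout and 14 fell, with a median of 0.01, and with library totals 41 rose and 5 fell with a median of 0.10. Without wild-type replicate 1, 9 fell. Complex V had 6 risen and 1 fallen, complex I 7 and 10, complex III 3 and 0, complex IV 1 and 3, and complex II 0 and 0 of 4. The 6 that rose in complex V are Atp5a1, Atp5b and Atp5c1 of the catalytic head, Atp5pb of the stalk, and Atp5g2 and Atp5g3 of the c ring. In complex III Uqcrc1 and Uqcrc2, the core proteins, and Uqcrfs1, the Rieske iron-sulphur protein, rose. Atp5b was read at 1477, 1486 and 1460 CPM, above all 3 wild-type libraries, and rose by 0.24 (SE 0.02, adjusted p 1.86e-35). Ndufa3, an accessory subunit of complex I (chromosome 7, 3617373 to 3620327), was read at 53.6, 47.5 and 51.6 CPM in wild type and at 33.9, 34.2 and 35.5 CPM in the knockout. It fell by 0.56 (SE 0.06, adjusted p 2.03e-17). Ndufa10 rose by 0.21, Ndufaf6 by 0.66 and Uqcrc1, a core subunit of complex III, by 0.08, while Atp5e fell by 0.27.

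Ndufa4 rose in the knockout at passages 5 and 10. It was first assigned to complex I and is now placed in complex IV, and lies on chromosome 6 at 11900292 to 11907497. Mist1- gave 31.8, 30.6 and 38.5 CPM, wild type at passage 5 gave 32.9, 34.2 and 33.5 CPM, and wild type at passage 10 gave 34.7, 35.9 and 37.5 CPM. In the knockout, passage 5 gave 47.8, 52.0 and 46.2 CPM, passage 10 gave 64.4, 61.9 and 57.5 CPM, and passage 15 gave 65.4, 65.9 and 71.5 CPM. Every knockout library was above every library of those 3 other groups.

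The gene rose by 0.54 in the knockout at passage 5 (SE 0.06, adjusted p 8.27e-15) and by 0.76 at passage 10 (SE 0.06, adjusted p 1.50e-26). Within the knockout it rose by 0.33 from passage 5 to 10 and by 0.47 from passage 5 to 15. Wild type at passage 15 was higher still, at 179, 89.1 and 121 CPM. With its 3 libraries, Ndufa4 rose by 1.95 from passage 5 to 15 in wild type (SE 0.16, adjusted p 3.64e-09). With replicate 2 alone the difference was 1.42, and the knockout was 0.40 lower at passage 15. The 3 lowest groups were Mist1- and wild type at passages 5 and 10, and neither Mist1- nor passage 10 passed the test against wild type at passage 5 (0.00, SE 0.06, and 0.10, SE 0.06). The knockout followed at passages 5, 10 and 15, and wild type at passage 15 was highest. The knockout at passages 10 and 15 was not tested against each other, and their nearest libraries were 64.4 and 65.4 CPM.

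**Figure D2:**
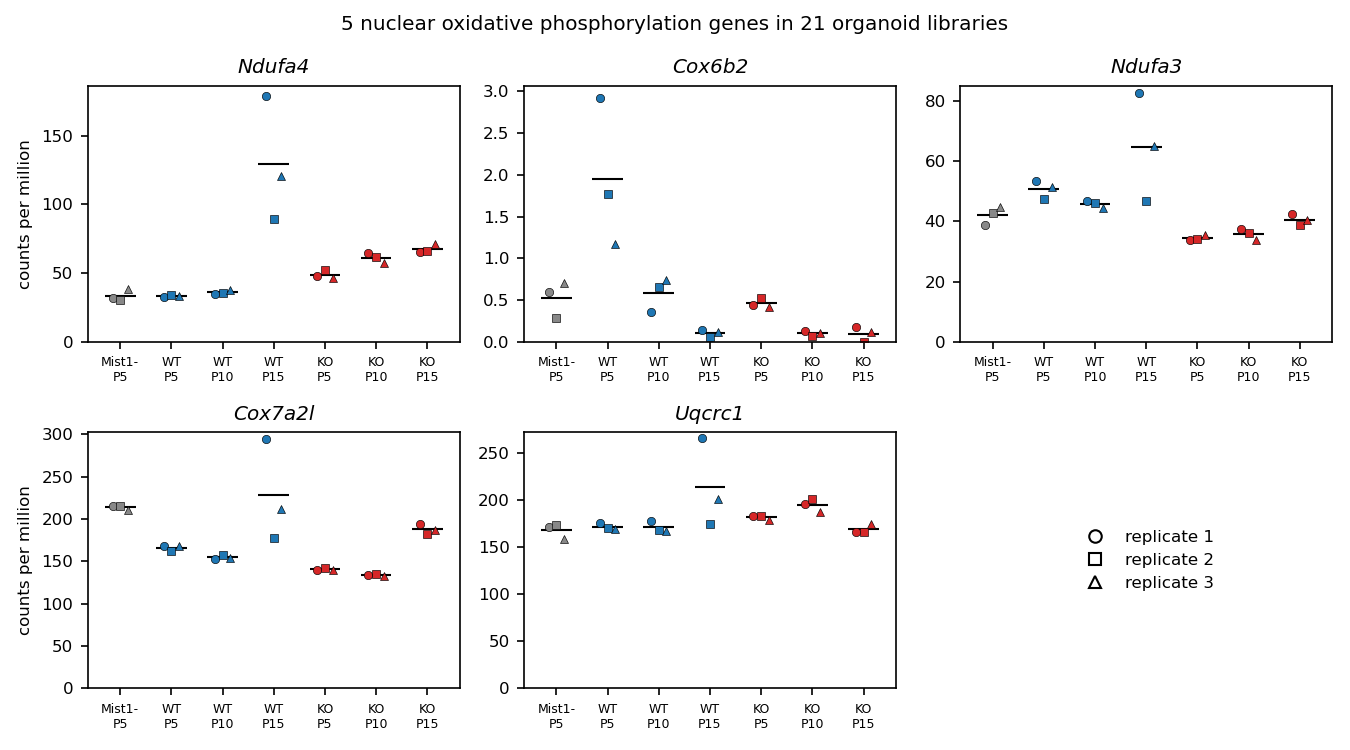
CPM (y axes, from 0) of Ndufa4, Cox6b2, Ndufa3, Cox7a2l and Uqcrc1 in the 7 groups (x axis); each point is a library, marker shapes give the replicate and bars the group mean of 3. Ndufa4 lies between 32.9 and 34.2 CPM in wild type passage 5 and between 46.2 and 52.0 CPM in the knockout at passage 5, and wild-type passage 15 spreads from 89.1 to 179 CPM.

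At passage 10 the mitochondrial mRNAs were lower still in the knockout than in wild type. Of 13, 12 fell and 0 rose, with a median of -0.44, against 24.7% of all genes higher and 27.3% lower. mt-Cytb was read at 9525, 9380 and 9535 CPM in wild type and at 6458, 6411 and 6232 CPM in the knockout and fell by 0.57 (SE 0.03, adjusted p 1.93e-10). mt-Nd4 fell by 0.53, from 2855, 2831 and 2862 CPM to 1989, 1946 and 1992 CPM. For mt-Co1, mt-Nd2, mt-Nd5 and mt-Nd6 the fall was 0.33 to 0.36, and for mt-Nd1 it was 0.13 (SE 0.03, adjusted p 0.000955). The 7 well-counted mRNAs all fell, with a median of -0.35. No knockout library overlapped wild type for any of these 7, and the share of all genes so separated is not given here. With library totals 11 fell and 0 rose (median -0.36). The mitochondrial rRNAs went the other way. mt-Rnr2 was read at 758.5, 764.6 and 790.6 CPM in wild type and at 1393, 1394 and 1398 CPM in the knockout. mt-Rnr1 was read at 292.5, 292 and 299.7 CPM and at 418.4, 400.9 and 387.4 CPM.

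Nuclear genes at passage 10 were near balance, with 17 risen, 21 fallen and a median of -0.03. With library totals 28 rose and 11 fell (median 0.05). For complex I 4 rose and 9 fell, for complex IV 2 and 7, for complex V 5 and 4, for complex III 3 and 0 and for complex II 0 and 1. Uqcrc1 was read at 196, 201 and 188 CPM against 178, 168 and 167 CPM and rose by 0.19. Ndufa6, an accessory subunit of complex I, fell by 0.40 (SE 0.06, adjusted p 1.01e-09), from 45.5, 45.5 and 48.7 CPM to 37.0, 35.3 and 34.0 CPM. Of the 8 assembly factors 3 rose, Ndufaf6 by 0.46 among them.

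The risen genes of the knockout at passage 10 included all 5 tested members on chromosome 19 (Ndufv1, Ndufs8, Ndufb8, Cox8a and Atp5md), singled out after their values were seen, with a median of 0.33. All 519 tested genes of that chromosome had a median of 0.29, with 53.4% higher. Ndufv1, which binds NADH and its flavin in complex I, was read at 88.0, 96.4 and 93.4 CPM in wild type and at 128, 124 and 119 CPM in the knockout. It rose by 0.42 (SE 0.04, adjusted p 1.27e-20). Ndufs8, an iron-sulphur subunit of complex I (chromosome 19, 3908863 to 3912774), rose by 0.36. Atp5md, a small subunit of ATP synthase, rose by 0.24. Copy number of the chromosome was not measured, and its part was not tested.

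**Figure D3:**
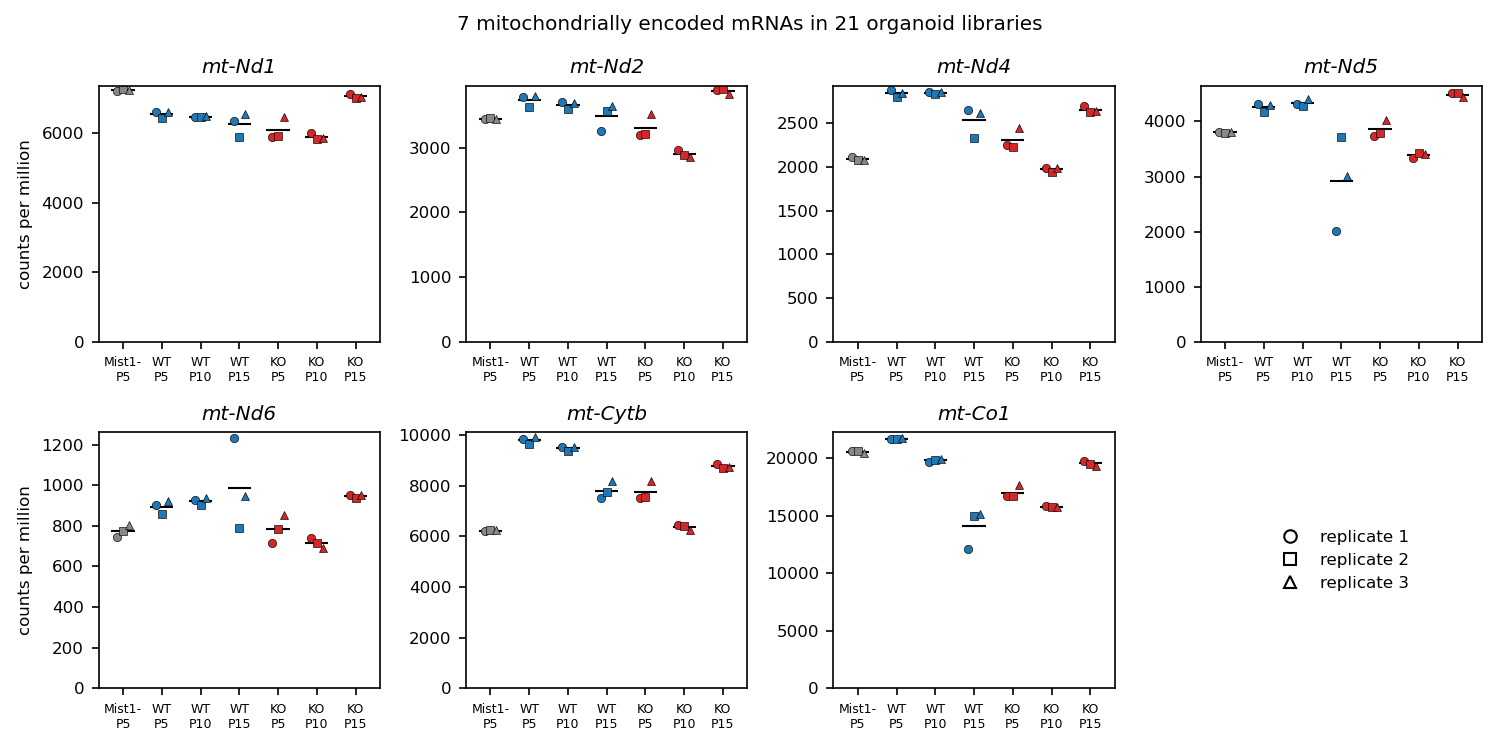
CPM (y axes, from 0) of the 7 well-counted mitochondrial mRNAs in the 7 groups (x axis). Points are libraries with marker shapes for replicates, and bars the mean of 3. mt-Cytb is lowest in Mist1- (6199 to 6242 CPM) and in the knockout at passage 10 (6232 to 6458 CPM), and highest in wild type at passage 5 (9623 to 9908 CPM).

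Within the knockout several mitochondrial mRNAs were lower at passage 10 and higher at passage 15 than at passage 5. From passage 5 to 10, 7 of 13 fell (5 of the 7 well-counted) and 0 rose, with a median of -0.19, against 11.7% of all genes higher and 10.5% lower. From passage 5 to 15, 7 rose and 1 fell, with a median of 0.20, against 14.4% higher and 15.6% lower. The 7 that rose are the 7 well-counted mRNAs, by 0.18 to 0.27. mt-Nd5, a proton-pumping subunit of complex I, went from 3740, 3799 and 4028 CPM to 3340, 3430 and 3404 CPM and then to 4510, 4518 and 4438 CPM, with no overlap between the passages. The 1 that fell is mt-Atp6 (by 0.20), whose count is uncertain, and it lost its call without knockout passage 5 replicate 1 or 3 or passage 15 replicate 3.

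The nuclear genes of the knockout had medians closer to 0. From passage 5 to 10, 7 rose and 15 fell (median -0.05; 6 fell without knockout passage 10 replicate 3 and 9 without knockout passage 5 replicate 2), and 5 of the 7 were the chromosome 19 members (median 0.31, all genes of the chromosome 0.30). Ndufs8 was read at 51.7, 52.9 and 56.1 CPM at passage 5 and at 70.1, 69.9 and 61.5 CPM at passage 10 and rose by 0.32 (SE 0.05, adjusted p 8.48e-09). Ndufa6 fell by 0.28, Sdhd by 0.09, Uqcrh, the hinge protein of complex III, by 0.14 and Atp5c1, the gamma subunit of ATP synthase, by 0.12.

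From passage 5 to 15 in the knockout, 28 nuclear genes rose and 2 fell (median 0.06). All 5 chromosome 19 members rose again (median 0.25, all genes of the chromosome 0.17). Cox7a2l was read at 140, 142 and 140 CPM at passage 5 and at 194, 183 and 187 CPM at passage 15 and rose by 0.42 (SE 0.03, adjusted p 1.05e-29). Ndufaf7, like Cox7a2l on chromosome 17, rose by 0.30 while all genes of that chromosome had a median of 0.02. Uqcr10 rose by 0.26 and Sdhc, an anchor subunit of complex II, by 0.11, while Uqcrc1 fell by 0.11.

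Few of these genes changed in wild type from passage 5 to 10. Of the mitochondrial mRNAs 1 fell, mt-Co1, by 0.13 (SE 0.01, adjusted p 4.25e-17), from the passage 5 values above to 19700, 19800 and 19900 CPM, and 0 rose. The median was 0.00. Among nuclear genes 2 rose and 10 fell, with a median of -0.01. Of all genes 9.19% rose and 9.27% fell. The 10 falls went to 1 without wild-type passage 5 replicate 1, 3 without its replicate 3, and 2, 5 and 4 without passage 10 replicates 1, 2 and 3. The 2 rises went to between 1 and 4 as each library was left out (4 without passage 10 replicate 3, 3 without passage 5 replicate 1 or 3, 1 without passage 5 or passage 10 replicate 2) and to 0 with all 21 libraries. With library totals 6 nuclear genes rose and 4 fell. Atp5g3, one of 3 genes for the c subunit of ATP synthase, rose by 0.12, from 268, 266 and 276 CPM to 296, 296 and 286 CPM. Ndufb10, an accessory subunit of complex I, rose by 0.11, while Uqcrh fell by 0.10, Atp5l by 0.11 and Ndufa2 by 0.20.

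For 6 of the 13 mitochondrial mRNAs the difference between knockout and wild type was itself lower at passage 10 than at passage 5, by the interaction of genotype with passage, and for 0 it was higher (median -0.21). Of the 7 well-counted mRNAs 4 were lower (median -0.17), and mt-Nd1, mt-Nd6 and mt-Co1 did not pass. With all 21 libraries in the fit 1 of the 13 was lower. For all genes 10.6% were higher and 9.58% lower. mt-Cytb had an interaction of -0.24 (SE 0.04, adjusted p 0.000338), mt-Nd4 -0.23 and mt-Nd5 -0.21. mt-Co1, lower in the knockout at each of these passages, had an interaction of 0.03 (SE 0.02, adjusted p 0.307). Among nuclear genes 6 were higher and 7 lower, and the 5 members of chromosome 19 were among the higher, with a median of 0.34, as for all tested genes of the chromosome (0.34). The sixth was Ndufa4, with an interaction of 0.22 (SE 0.08, adjusted p 0.0401).

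**Figure D4:**
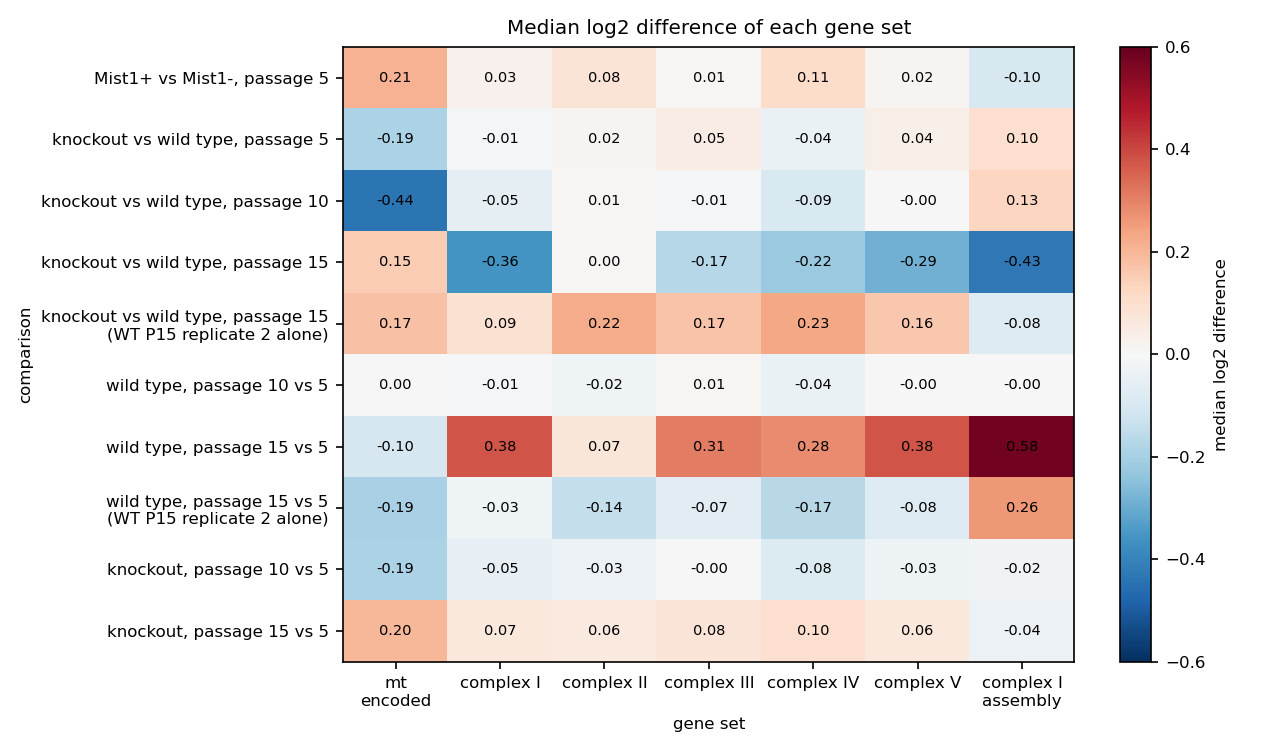
Median log2 difference of the mitochondrially encoded mRNAs, the nuclear subunits of complexes I to V and the complex I assembly factors (x axis) in 8 comparisons, 2 of them also with replicate 2 alone of wild-type passage 15 (y axis); colour and printed number give the median. The mt encoded column, over all 13 mRNAs, falls to -0.44 for knockout against wild type at passage 10 while complexes I to V lie between -0.09 and 0.01, and the wild-type passage 15 rows turn sign for complexes I, III, IV and V with replicate 2 alone.

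Wild type at passage 15 gave opposite directions for nuclear genes by the libraries used. With its 3 libraries, 52 of 90 nuclear genes rose from passage 5 and 1 fell, with a median of 0.36, against 24.7% of all 15115 genes higher and 26.6% lower. With replicate 2 alone, assumed to vary like the other groups, 9 rose and 24 fell with a median of -0.06, against 20.5% higher and 22.6% lower. Replicate 1 stood 0.85 above replicate 2 in the median nuclear gene and replicate 3 stood 0.31 above it. The median of replicate 2 over the passage 5 mean was -0.05. Without replicate 2, 84 nuclear genes rose, and with library totals 77 did. Ribosomal protein genes, also short, spread likewise, and the 78 tested mitochondrial ribosomal proteins had a median of 0.43 with 3 libraries and 0.11 with replicate 2 alone.

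**Figure D5:**
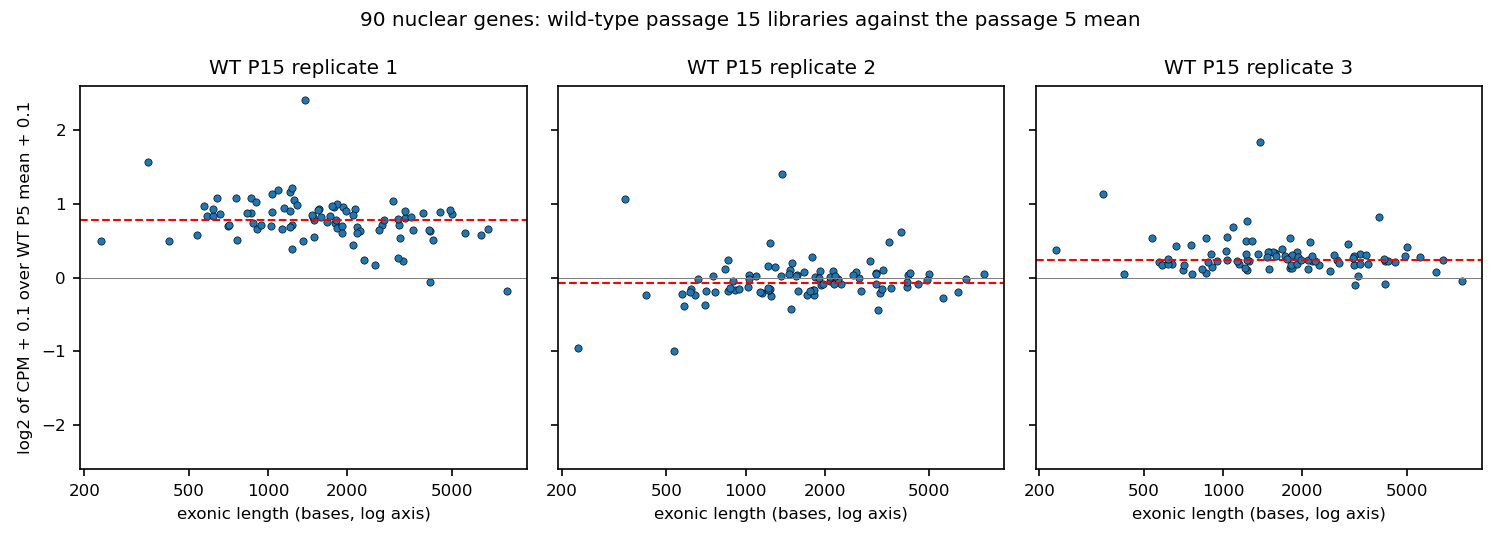
Log2 ratio of CPM + 0.1 in each wild-type passage 15 library to the passage 5 mean + 0.1 (y axis) against exonic length in bases (x axis, log scale) for the 90 tested nuclear genes; dashed lines mark the median. Replicate 1 lies near 0.8 above 0, replicate 2 close to 0 and replicate 3 between them.

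Ndufa4 kept its direction in wild type at passage 15 with 3 libraries and with replicate 2 alone. So did Ndufaf4, an assembly factor of complex I, read at 82.0, 68.5 and 78.9 CPM against 43.2, 45.6 and 44.7 CPM at passage 5. That gene rose by 0.78 with 3 libraries (SE 0.06, adjusted p 3.19e-09) and was 0.63 higher with replicate 2 alone. It was chosen after its values were seen. Of the mitochondrial mRNAs 1 rose and 4 fell with 3 libraries (median -0.10), and 1 rose and 7 fell with replicate 2 alone (median -0.19). Of the 7 well-counted mRNAs 4 and then 5 fell and 0 rose. mt-Co1 was read at 12070, 14960 and 15170 CPM and fell by 0.62 and 0.53 respectively. mt-Cytb fell by 0.33 in either fit.

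Knockout against wild type at passage 15 turned with the choice of libraries. With 3 wild-type libraries 2 nuclear genes rose and 36 fell, with a median of -0.28, against 23.6% of all genes higher and 25.3% lower. Of the nuclear genes 13 fell and 7 rose without wild-type replicate 1, and the falls were 80 without its replicate 2, and 22 without knockout replicate 1 or 2. With replicate 2 alone 39 rose and 4 fell, with a median of 0.12, against 17.8% higher and 18.8% lower. Of the mitochondrial mRNAs 5 rose and 1 fell with 3 libraries (median 0.15; 4 fell without wild-type replicate 2), and 6 rose and 1 fell with replicate 2 alone (median 0.17). Of the 13, 3 had the other sign with replicate 2 alone: mt-Nd6 (-0.06 and 0.26), mt-Co2 (-0.18 and 0.17) and mt-Atp6 (-0.17 and 0.11). Among the 7 well-counted mRNAs 5 and then 6 rose and 0 fell. mt-Co1 was read at 19770, 19520 and 19350 CPM in the knockout and rose by 0.47 and by 0.38. mt-Nd5 rose by 0.62 with 3 libraries and by 0.27 with replicate 2 alone. Ndufa3 fell by 0.67 and by 0.21.

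In the interaction of genotype with passage 15 against 5, 6 mitochondrial mRNAs were higher and 0 lower with 3 libraries (median 0.33), and 8 were higher and 1 lower with replicate 2 alone (median 0.36). Of the 7 well-counted mRNAs 6 and then all 7 were higher. All genes were 19.7% higher and 18.6% lower in the first fit and 20.8% higher and 19.7% lower in the second. mt-Co1 had an interaction of 0.73 with replicate 2 alone. Nuclear genes again turned, from 0 higher (5 without wild-type passage 15 replicate 1) and 16 lower (70 without its replicate 2, 36 with library totals) to 33 higher and 7 lower. Ndufa4 had an interaction of -0.94 with replicate 2 alone.

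Most tissue-restricted paralogues had few or no counts. Of the 10 untested nuclear genes, 3 had no count in any library (Cox7b2, Cox8c and a second gene model named Atp5o) and the others had at most 64 counts over the 21 libraries. Cox4i2, Cox6a2, Cox8b and Ndufa4l2 had 14, 3, 4 and 4. The common forms were abundant, with a mean of 136 FPKM for Cox4i1, 173 for Cox6a1, 292 for Cox6b1 and 184 for Cox8a in wild type at passage 5. Cox7a1, the heart and muscle form, stood at 1.24 FPKM beside 107 for Cox7a2 and 108 for Cox7a2l, and it was called in none of the 10 comparisons by edgeR. Of the genes for the identical c subunit of ATP synthase, Atp5g3 stood at 119 FPKM, Atp5g2 at 49.7 and Atp5g1 at 8.40.

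Cox6b2, the testis form of Cox6b1 (chromosome 7, 4751792 to 4753094), differed between groups at a low level. Wild type at passage 5 gave 2.92, 1.76 and 1.17 CPM. The values for passage 10 were 0.36, 0.65 and 0.74 CPM and for passage 15 0.14, 0.059 and 0.12 CPM. Mist1- gave 0.59, 0.28 and 0.71 CPM, and knockout passage 5 gave 0.44, 0.52 and 0.42 CPM. At passage 15 the mean was 0.099 CPM in the knockout and 0.109 CPM in wild type. Cox6b2 also fell in the knockout from passage 5 to 10 and from passage 5 to 15. It was 1.88 higher in wild type than in Mist1- (SE 0.41, adjusted p 2.67e-05) and fell by 2.05 in the knockout at passage 5 (SE 0.41, adjusted p 6.71e-06). The gene had 182 counts in all 21 libraries, so each of these values rests on few reads.

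Other genes of mitochondrial function were read from 8 lists. In the knockout at passage 5, 22 of 32 genes for carriers, import and uncoupling rose and 3 fell (median 0.16), against 22.2% of all genes higher and 25.2% lower. Hspd1, the mitochondrial chaperonin, rose by 0.43 (SE 0.02) and Ucp2, an uncoupling protein homologue, fell by 0.68 (SE 0.02). At passage 10, 22 rose and 3 fell (median 0.19), against 24.7% and 27.3% of all genes. Of 29 genes that maintain mitochondrial DNA or handle its RNA, 12 rose and 0 fell at passage 5 and 16 rose and 0 fell at passage 10, with medians of 0.14 and 0.19, while the mitochondrial mRNAs fell in the same organoids. Lrpprc, which binds and stabilises mitochondrial mRNAs, rose by 0.31 in the knockout at passage 5 (SE 0.04, adjusted p 3.11e-12), and lies on chromosome 17.

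The tricarboxylic acid cycle and pyruvate dehydrogenase list had 11 of 21 genes risen and 2 fallen at passage 5 and 12 and 1 at passage 10. The counts here stand against 22.2% of all genes higher and 25.2% lower at passage 5, and 24.7% and 27.3% at passage 10. Suclg1, a subunit of succinyl-CoA ligase, rose by 0.49 and Idh2 by 0.42 at passage 5. Of 20 genes for electron carriers and coenzyme Q synthesis 6 rose and 6 fell at passage 5 and 9 and 4 at passage 10, with Cycs, the mobile cytochrome c, up by 0.20 and 0.19. Mitochondrial ribosomal proteins had 25 of 78 risen and 5 fallen at passage 5 and 35 and 4 at passage 10. Cytosolic ribosomal proteins had 25 of 85 risen and 6 fallen and then 53 and 4. Assembly factors outside the rule had 3 of 38 risen and 11 fallen and then 3 and 6, with Pet100, a complex IV factor, down by 0.58 at passage 5.

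Regulators of mitochondrial biogenesis were mixed, with 7 of 18 risen and 5 fallen at passage 5 and 7 and 3 at passage 10, against the same shares of all genes (22.2% and 25.2%, then 24.7% and 27.3%). Hif1a, the oxygen-regulated transcription factor, rose by 0.74 at passage 5 (SE 0.03) and by 0.46 at passage 10. Pparg, a lipid-sensing nuclear receptor, fell by 1.63 and by 0.52. In wild type against Mist1-, Pparg rose by 1.78 and Hif1a fell by 0.57. The 2 comparisons share the wild-type passage 5 libraries.

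In that comparison with Mist1-, 17 of the 32 carrier, import and uncoupling genes fell and 4 rose, 60 of 85 cytosolic ribosomal genes fell and 2 rose, and 11 of 21 tricarboxylic acid cycle genes fell and 2 rose, where 25.7% of all genes were lower and 26.8% higher. Lrpprc fell by 0.81 (SE 0.04), with the genes of chromosome 17. Summed markers moved in the knockout comparisons too, with pit cell markers at 1444 to 1468 CPM in the knockout and 4957 to 5102 CPM in wild type at passage 5, and parietal markers at 263 to 267 CPM and 615 to 623 CPM. At passage 10 they were at 2342 to 2540 and 6814 to 7066 CPM for pit cells and 298 to 303 and 538 to 551 CPM for parietal cells. At passage 15 the pit cell markers were at 4714 to 4797 CPM in the knockout and 914 to 1539 CPM in wild type, and the parietal markers at 293 to 317 and 243 to 274 CPM. Within the knockout the pit cell markers were thus highest at passage 15, where the 7 well-counted mRNAs were also above passage 5. The pit cell markers of the knockout were higher at passage 10 than at 5 as well, while 5 of these 7 mRNAs fell and 0 rose. In wild type they were also higher at passage 10 than at 5, while 1 of the 7 mRNAs fell and 0 rose. The part of the markers in the mitochondrial values was not tested.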

How the data were processed

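RNA-seq of 21 organoid libraries was read from the table that the authors deposited, which holds raw counts per gene and FPKM, per the file headers. The submitters' processing notes name cutadapt 1.9.1, HISAT2 2.2.1, HTSeq 0.6.1 and the build GRCm38.p5. Strand handling is not given in the sources used here, so antisense partners cannot be told apart. FPKM values, made by the authors, served to compare levels between genes. Among the alternatives they were also the input to limma and the basis of a filter.

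The counts went into edgeR 4.0.16 under R 4.3.3, with 1 mean per group, filterByExpr (minimum count 10, minimum total 15), TMM scaling and the quasi-likelihood test, adjusted by Benjamini-Hochberg. That left 14984 genes in 18 libraries without wild-type passage 15, or 15115 in all 21 libraries where that group is compared. Each simulated comparison of this size was tested with known changes. Replicates of a group differed by more than counting noise.

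The members and lists were chosen with earlier results of these data known. Named are all mitochondrial mRNAs, per complex and comparison the called gene with the most positive and most negative difference whose libraries do not overlap, paralogues of one subunit, and up to 3 genes per list with the smallest adjusted p. A gene outside this rule was chosen after its values were seen. Copies were searched with BLASTN 2.17.0 among GENCODE M21 transcripts. Alternatives included limma 3.58.1 and DESeq2 1.42.0.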

Additional observations from a re-analysis of the deposited data

Results flagged for a closer look

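The genotype effect differed between passages by the interaction test, from passage 5 to 10, for 6 mitochondrial mRNAs: mt-Nd2 (-0.16), mt-Nd5 (-0.21), mt-Nd4 (-0.23), mt-Cytb (-0.24), mt-Co2 (-0.25) and mt-Atp6 (-0.43). It also differed for Ndufv1 (0.35), Cox8a (0.37) and Atp5md (0.28), all on chromosome 19, and for Ndufa6 (-0.27), Sdhd (-0.14) and Atp5g3 (-0.18). Values are log2, knockout change less wild-type change. The counts of mt-Co2, mt-Atp6 and, in the next comparison, mt-Co3 are uncertain, since near-identical nuclear copies exist. With all 21 libraries 1 mitochondrial mRNA passed the threshold.

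From passage 5 to 15, with replicate 2 alone of wild-type passage 15, the test gave 0.48 for mt-Nd4, 0.45 for mt-Nd6, 0.41 for mt-Nd5, 0.36 for mt-Nd1, 0.29 for mt-Nd2, 0.51 for mt-Cytb, 0.73 for mt-Co1, 0.35 for mt-Co2 and -0.45 for mt-Co3. Ndufa4 (-0.94), Ndufaf6 (-0.70) and Uqcrc1 (-0.14) were lower. The lone library was assumed to vary like the other groups.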

How the results depend on the processing

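The value followed through the alternatives was the median log2 difference of mitochondrial less nuclear genes. With replicate 2 alone of wild-type passage 15 it moved from 0.4329 to 0.0495 for knockout against wild type at passage 15, from -0.4565 to -0.1293 for wild type passage 15 against 5, and from 0.6079 to 0.2554 for the interaction at passage 15. With only the 7 well-counted mitochondrial mRNAs it moved from -0.4109 to -0.3288 for knockout against wild type at passage 10. That choice, leaving out chromosomes 17 and 19, and centring by chromosome were made after seeing the data. Leaving out each library gave -0.257 to -0.149 for knockout against wild type at passage 5, -0.4734 to -0.3208 at passage 10, 0.1269 to 0.5914 at passage 15 and 0.3428 to 0.7504 for the interaction at passage 15. The lowest values at passage 15 came without wild-type replicate 1. The cause was not tested.

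With all 21 libraries in 1 fit, whose common biological coefficient of variation was 8.18% against 2.41% for 18, the 31 nuclear genes higher than in Mist1- became 1. In the knockout the nuclear counts of 20 risen and 14 fallen became 4 and 3 at passage 5, and 17 and 21 became 7 and 3 at passage 10. Mitochondrial falls went from 9 to 4 at passage 5 and from 12 to 11 at passage 10. Mitochondrial interactions at passage 10 went from 6 lower to 1. Another alternative was limma on log2 of the authors' FPKM (pseudocount 0.1), to which TMM scaling was not applied, so both method and scale changed. The mitochondrial genes higher than in Mist1- then went from 10 to 6 and the nuclear ones from 31 to 17. Mitochondrial falls in the knockout at passage 5 went from 9 to 5, and the nuclear counts became 40 risen and 5 fallen. Nuclear falls at passage 10 went from 21 to 10, and nuclear rises from passage 5 to 15 in the knockout from 28 to 16. DESeq2 gave 20 nuclear genes higher than in Mist1- and 3 lower in wild type passage 10 against 5 in place of 10. With only the groups compared, the 52 nuclear rises in wild type from passage 5 to 15 became 5, and the 36 falls in the knockout at passage 15 became 3. Those 36 became 23 with a length offset, 56 with no filter and 63 with limma-voom and quality weights. The count of 0 mitochondrial interactions lower at passage 15 became 1 with library totals, limma, no filter and the block, among others. At a 2-fold threshold 0 members were called, except 1 nuclear gene higher and 1 lower in wild type passage 15 against 5. Of 2642 values of named genes under alternatives, 190 lost a call and 35 gained one with the same sign. Of those called in the main fit 0 changed sign. The nuclear ones were named for extreme differences without overlap, which favours a stable sign. Called members outside the named ones did turn with replicate 2 alone of wild-type passage 15. Ndufa13 went from -0.47 to 0.22 for knockout against wild type at passage 15. Uqcrh went from 0.30 to -0.16 for wild type passage 15 against 5. Changes of sign in genes not called in the main fit were not counted. One such gene was mt-Nd6 for knockout against wild type at passage 15, at -0.06 with 3 libraries and 0.26 with replicate 2 alone.

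The replicate numbers did not pair the libraries: the 45 correlations of same-numbered deviations lay between -0.0476 and 0.044. With a replicate block the median difference was -0.2060 at passage 5 and -0.4113 at passage 10 for knockout against wild type, and the nuclear counts at passage 5 were 20 risen and 13 fallen. Simulated 1.2-fold changes were recovered in 50% of genes for knockout against wild type at passage 5 and 46% at passage 10. The simulation gave all genes the same spread, larger than the common biological coefficient of variation of 2.41% in the 18 libraries. These rates hold for that setting and are not rates for these data, where differences of that size may still be missed.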
